A study of Mus musculus with 6 samples.

Results

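Antibody genes of the mouse lung were followed here through 8 members: the heavy chain genes Igha (IgA), Ighm (IgM) and Ighg3 (IgG3), the kappa light chain variable segments Igkv8-30, Igkv9-120 and Igkv6-14, the joining chain gene Jchain, and Pigr, which encodes the polymeric immunoglobulin receptor. Every probe set whose platform symbol is one of these was taken, which gave 26 of the 45037 probe sets analysed. The members were chosen because their values differed between WT and IL4R KO lungs. That difference is therefore given as a description with no test.

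Whole lungs of adult BALB/c mice were measured on 6 Affymetrix mouse 430 2.0 arrays, in 3 groups of 2. WT mice carry the receptor gene in every cell. IL4R KO mice lack a functional IL-4 receptor alpha chain, which both IL-4 and IL-13 need for signalling. The IL4R KO + SMP8-IL4R mice, called transgenic below, are knockout mice that also carry a receptor transgene (+/-) driven by the SMP8 promoter, which the design text describes as restricted to smooth muscle. All 3 groups received 2 to 3 µg of IL-13 into the trachea on each of 7 days, and RNA was made from the lungs 24 hours later. No lung without IL-13 is among the arrays. Each array held RNA pooled from 4 mice, so n = 2 counts pools, and the spread between single mice was not measured.

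Antibodies are built from paired heavy and light chains made by B cells and, in far larger amounts, by plasma cells. J chain links IgA units into dimers and IgM units into pentamers. Pigr, made by epithelial cells and not by plasma cells, binds these J chain-bearing polymers on the tissue side, carries them across the cell and releases them into the lumen with a part of itself attached, the secretory component. In airways this is the route by which IgA reaches the mucosal surface.

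Promoter sequence was at hand for the chain that joins the polymers and for the receptor that carries them, and both are shown because they had opposite patterns across the groups. They are from RefSeq on build GRCm38.p6 and run from 250 bases before the start of the gene to 50 bases after it. The Jchain stretch is chr5:88527848-88528147 on the minus strand and the Pigr stretch is chr1:130826434-130826733 on the plus strand. Capitals mark matches to the motifs searched on both strands.
Jchain: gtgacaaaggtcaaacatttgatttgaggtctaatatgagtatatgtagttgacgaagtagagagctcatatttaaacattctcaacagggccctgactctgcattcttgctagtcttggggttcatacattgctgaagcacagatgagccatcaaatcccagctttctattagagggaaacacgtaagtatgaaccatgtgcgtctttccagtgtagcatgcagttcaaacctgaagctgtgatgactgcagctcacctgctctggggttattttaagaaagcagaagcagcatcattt
Pigr: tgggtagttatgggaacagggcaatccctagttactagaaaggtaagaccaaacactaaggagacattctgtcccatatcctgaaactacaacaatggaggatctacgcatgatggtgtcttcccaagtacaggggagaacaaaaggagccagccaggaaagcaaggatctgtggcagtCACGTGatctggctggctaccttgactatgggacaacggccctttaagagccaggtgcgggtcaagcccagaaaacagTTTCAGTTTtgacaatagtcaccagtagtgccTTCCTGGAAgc
In Pigr the capitals mark, in order, the E-box CACGTG at base -71 from the start, a match to AAANNGAAA read from the other strand at base 8, and a match to TTCNNNGAA at base 40. Of 32851 RefSeq promoters of the same length, 7.15% hold the first, 10.6% the second and 8.3% the third, so each is a common string. The Jchain stretch holds none of these 3 motifs. Neither stretch holds the octamer ATGCAAAT, which 1.74% of promoters hold. Neither holds GAAA repeated after any 2 bases, the interferon response core (3.44%). Nor does either hold TTC and GAA with any 4 bases between them, the form that STAT6 favours (6.95%). Only these stretches were searched, so the motifs may lie elsewhere in or near either gene.

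All values are log2 values, so a difference of 1 is 2-fold, and values of different probe sets cannot be ranked against each other. The median of all values in the table was 7.10, with quartiles at 5.30 and 8.98. A probe set is a group of short probes for a transcript. Names that end in x_at or s_at mark probes that can bind transcripts of more than 1 gene, and a_at marks probes shared by several transcripts of a gene. Of the 26 probe sets, 10 end in x_at or s_at (8 and 2), 4 end in a_at and 12 have the plain ending. Antibody chains are similar in sequence, so a value from one of the 10 cannot be assigned to its named gene alone. A value above 7.10 in at least 2 arrays was reached by 15 of the 26. The other 11, which are 7 of Ighm, 3 of Ighg3 and 1 of Igkv9-120, were dim on most arrays, where the method compresses differences.

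Some arrays stood apart. The mean of 6 hepatocyte genes stood at 10.22 in the first IL4R KO pool and 9.69 in the second WT pool, against 6.13 to 6.29 elsewhere. The mean of 3 Y-linked genes was 3.72 in IL4R KO pool 2 and 7.50 to 8.31 in the other arrays, while Xist, the RNA of the inactive X chromosome, was lowest in IL4R KO pool 1 at 7.93 against 10.08 to 11.40 in its brightest probe set 1436936_s_at. The mean of 4 adipose genes was 7.77 and 7.86 in the IL4R KO pools against 6.44 and 6.59 in WT and 6.90 and 7.02 in the transgenic pools. Over all probe sets, pool 1 and pool 2 differed with an SD of 0.31 in IL4R KO, 0.21 in WT and 0.16 in the transgenic group. The probe set of the receptor gene itself with the highest values, Il4ra 1423996_a_at, read 9.64 and 9.81 in the WT pools, 9.35 and 9.55 in the IL4R KO pools and 9.98 and 9.84 in the transgenic pools. Where its probes lie relative to the deletion is not given in the sources used here, so it does not check the labels. The bronchiolar and alveolar markers Scgb1a1 (14.60 to 14.75) and Sftpc (14.73 to 14.76) were near the top of the scale on every array, as the label lung requires. What part the hepatocyte, adipose and sex-linked differences have in the values below was not tested.

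In the probe set with the highest values of each antibody chain gene and of Jchain, transcripts were low in WT lungs and high in both groups without the native receptor, and Pigr was the other way round. Some Ighm probe sets did not share this: 3 of the 11 read higher in WT than in IL4R KO lungs without overlap. Each of the 7 chain and J chain genes had a probe set that passed as higher in transgenic than in WT lungs. The differences ran from 1.77-fold for Ighm to 6.84-fold for Ighg3, and Pigr was 3.92-fold to 3.94-fold lower. The WT arrays here are those on which the members were chosen, so their levels are not fresh measurements. Calls other than those of Igkv6-14 and Pigr were lost when any WT or transgenic pool was left out. In no member did a difference between transgenic and IL4R KO lungs pass. In whole lung RNA, fewer antibody-making cells and less antibody RNA per cell cannot be told apart.

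**Figure D1:**
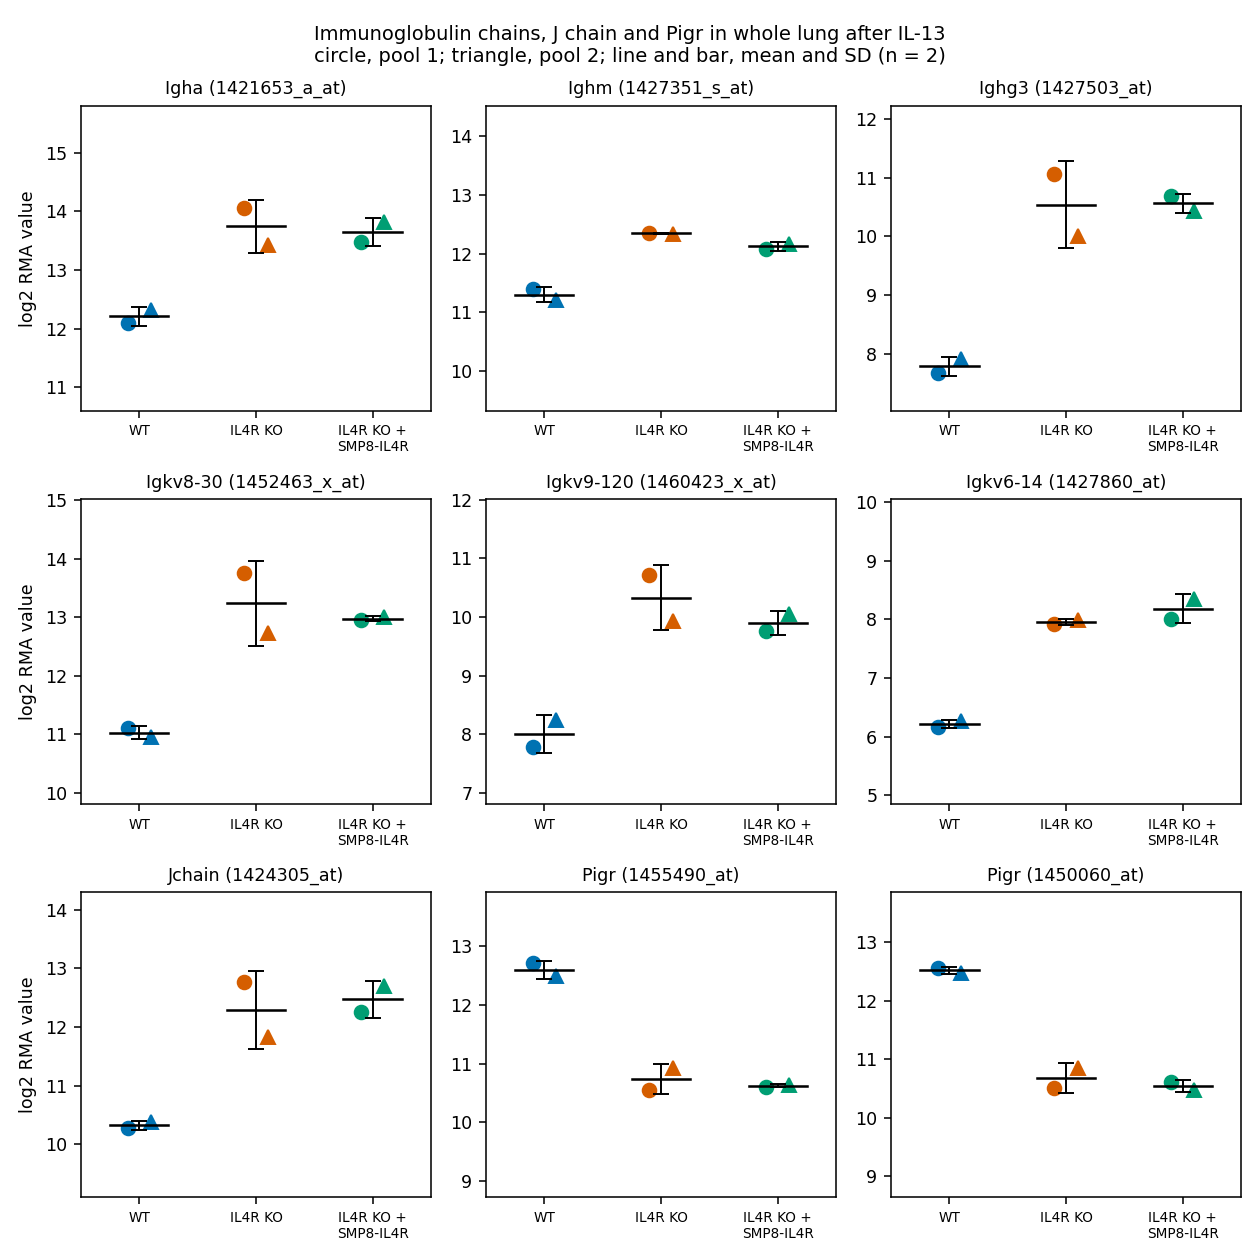
Deposited log2 values (vertical axis, each panel spanning the same number of log2 units) of 9 probe sets of the 8 members in WT, IL4R KO and IL4R KO + SMP8-IL4R lungs. Circles are pool 1, triangles pool 2, and lines with bars the mean and SD of 2 pools; in the 7 chain and J chain panels both WT points lie below the other 4, and for Pigr both WT points are the highest.

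IgA heavy chain was read by 3 probe sets. Igha 1421653_a_at read 12.10 and 12.32 in the WT pools, 14.06 and 13.43 in the IL4R KO pools and 13.48 and 13.82 in the transgenic pools. All 4 pools without the native receptor lay above both WT pools, with IL4R KO pool 1 the highest. The means were 12.21 ± 0.16, 13.74 ± 0.45 and 13.65 ± 0.24 (SD, n = 2 each). The transgenic lungs were 2.71-fold above WT (log2 difference 1.44 ± 0.22 SE, limma adjusted p = 0.0396). Igha 1425763_x_at gave the same picture, from 11.92 and 12.00 in WT to 13.23 and 13.50 in the transgenic pools (log2 difference 1.41 ± 0.21 SE, limma adjusted p = 0.0375). Igha 1429381_x_at had a log2 difference of 1.58 and missed the threshold (limma adjusted p = 0.0522). IL4R KO lungs lay above WT by 2.89-fold, 3.06-fold and 3.53-fold in these probe sets.

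IgM heavy chain had 11 probe sets that did not move together. The one with the highest values, Ighm 1427351_s_at, read 11.39 and 11.21 in the WT pools, 12.35 and 12.34 in the IL4R KO pools and 12.07 and 12.17 in the transgenic pools. Each group was tight, and transgenic pools lay above WT and below IL4R KO without overlap. The transgenic lungs were 1.77-fold above WT (log2 difference 0.82 ± 0.09 SE, limma adjusted p = 0.0122). Against IL4R KO their log2 difference was -0.22 (95% interval -0.44 to -0.01), which did not pass after adjustment (limma adjusted p = 0.428). The plain-ending Ighm 1452535_at read 6.86 and 7.09 in the WT pools, 9.13 and 8.28 in the IL4R KO pools and 8.18 and 8.14 in the transgenic pools. It had the same order of groups, but its log2 difference of 1.18 between transgenic and WT did not pass (limma adjusted p = 0.107). Ighm 1427329_a_at also followed that order, with a log2 difference of 0.65 (limma adjusted p = 0.0577).

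A different pattern was seen in 4 Ighm probe sets. Ighm 1425324_x_at read 7.65 in transgenic pool 2 and 5.21 to 5.96 in the other 5 arrays. Ighm 1425247_a_at read 8.39 in that pool and 6.03 to 7.04 elsewhere. Ighm 1427756_x_at and Ighm 1427870_x_at were high in that same pool only, at 7.83 and 9.38 against at most 6.57 and 8.40. Transgenic pool 2 thus exceeded transgenic pool 1 by 2.18, 1.72, 1.47 and 1.14 log2 units in these 4. In 3 of them both WT pools also lay above both IL4R KO pools, by 0.67 in Ighm 1425247_a_at, 0.38 in Ighm 1425324_x_at and 0.22 in Ighm 1427870_x_at. In Ighm 1425247_a_at both transgenic pools lay above both IL4R KO pools, with a log2 difference of 1.23 (95% interval 0.05 to 2.42; limma unadjusted p = 0.0431, adjusted p = 0.425). No difference between transgenic lungs and WT or IL4R KO passed in the 4. The remaining 4 Ighm probe sets stayed between 4.10 and 5.95 on every array.

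IgG3 heavy chain had the largest difference among the 26 probe sets. Ighg3 1427503_at, a plain-ending probe set, read 7.67 and 7.90 in the WT pools, 11.06 and 10.01 in the IL4R KO pools and 10.68 and 10.44 in the transgenic pools. WT stood far below every other array, and the transgenic pools lay between both IL4R KO pools. The transgenic lungs were 6.84-fold above WT (log2 difference 2.77 ± 0.31 SE, limma adjusted p = 0.0125), and IL4R KO lungs 6.73-fold. The other 3 Ighg3 probe sets were dim, from 3.14 to 5.67 on all arrays, with log2 differences of 0.14 to 0.21 between transgenic and WT.

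Among the kappa light chain segments, Igkv6-14 had the smallest spread beside its difference. Igkv6-14 1427860_at, plain-ending, read 6.17 and 6.27 in the WT pools, 7.92 and 8.00 in the IL4R KO pools and 8.02 and 8.36 in the transgenic pools. Both WT pools lay below the other 4 arrays, and the pools of each group were close. The transgenic lungs were 3.91-fold above WT (log2 difference 1.97 ± 0.12 SE, limma adjusted p = 0.00112), and IL4R KO lungs 3.34-fold.

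Igkv8-30 1452463_x_at read 11.11 and 10.95 in the WT pools, 13.75 and 12.73 in the IL4R KO pools and 12.95 and 13.00 in the transgenic pools. IL4R KO pool 1 was the highest array, and the transgenic pools sat between both IL4R KO pools. The transgenic lungs were 3.85-fold above WT (log2 difference 1.95 ± 0.29 SE, limma adjusted p = 0.0388). Igkv9-120 1460423_x_at read 7.78 and 8.24 in the WT pools, 10.72 and 9.93 in the IL4R KO pools and 9.75 and 10.05 in the transgenic pools, a 3.71-fold rise over WT in the transgenic lungs (log2 difference 1.89 ± 0.27 SE, limma adjusted p = 0.0338). Igkv9-120 1452536_s_at was uneven between pools of a group: it read 6.85 and 6.64 in the WT pools, 9.65 and 7.50 in the IL4R KO pools and 8.70 and 7.60 in the transgenic pools, and its log2 difference of 1.41 did not pass (limma adjusted p = 0.375). Its only plain-ending probe set, Igkv9-120 1427750_at, stayed between 3.94 and 4.05.

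Jchain is read by a single plain-ending probe set and is not one of the chain genes that resemble each other. Jchain 1424305_at read 10.27 and 10.38 in the WT pools, 12.76 and 11.82 in the IL4R KO pools and 12.25 and 12.69 in the transgenic pools. Both WT pools lay well below the lowest other pool, and the IL4R KO pools differed from each other more than the transgenic pools did. The means were 10.32 ± 0.08, 12.29 ± 0.67 and 12.47 ± 0.31 (SD, n = 2 each). The transgenic lungs were 4.44-fold above WT (log2 difference 2.15 ± 0.29 SE, limma adjusted p = 0.0295), and IL4R KO lungs 3.92-fold.

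Pigr, the transporter that binds the J chain-bearing polymers, went the opposite way in both of its plain-ending probe sets. Pigr 1455490_at read 12.71 and 12.49 in the WT pools, 10.56 and 10.92 in the IL4R KO pools and 10.60 and 10.64 in the transgenic pools. Pigr 1450060_at read 12.56 and 12.47 in the WT pools, 10.50 and 10.86 in the IL4R KO pools and 10.61 and 10.47 in the transgenic pools. WT was high in both, with no overlap, and the 4 other arrays lay close together. Pigr fell in the transgenic lungs against WT by 1.98 ± 0.14 and 1.97 ± 0.13 on the log2 scale (SE), which is 3.94-fold and 3.92-fold (limma adjusted p = 0.00165 and 0.00139). IL4R KO lungs lay below WT by 3.63-fold and 3.56-fold.

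Over the 26 probe sets, 10 passed between transgenic and WT lungs (limma adjusted p under 0.05 over all 45037 probe sets), 8 higher and 2 lower, the 2 being Pigr. Of all probe sets 1.04% passed in this comparison, 0.273% higher and 0.77% lower. Of the 12 plain-ending member probe sets, which do not carry the mark for binding several transcripts, 5 passed: Ighg3, Igkv6-14, Jchain and both of Pigr. The groups did not overlap in 18 of the 26, 15 higher and 3 lower, against 54.7% of all probe sets, 27.4% higher and 27.2% lower. The median log2 difference of the 24 chain and J chain probe sets, dim ones included, was 0.64, against -0.004 for all probe sets. This comparison shares the WT arrays with the one that chose the members, so the WT level is not a fresh measurement. With all 6 arrays kept, 5 of the 26 passed under a robust intensity trend and 7 with a replicate block, against 10. Igkv6-14 and both Pigr probe sets passed in each of the alternatives run. The other 7 lost the call when any WT or transgenic pool was left out: adjusted p was then 0.0613 without WT pool 1, 0.122 without WT pool 2, 0.0984 without transgenic pool 1 and 0.138 without transgenic pool 2 for Ighm 1427351_s_at, and 0.109 to 0.279 for the other 6, with no change of direction. Without WT pool 1, WT pool 2, transgenic pool 1 or transgenic pool 2 in turn, 3, 3, 4 and 3 of the 26 passed.

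**Figure D2:**
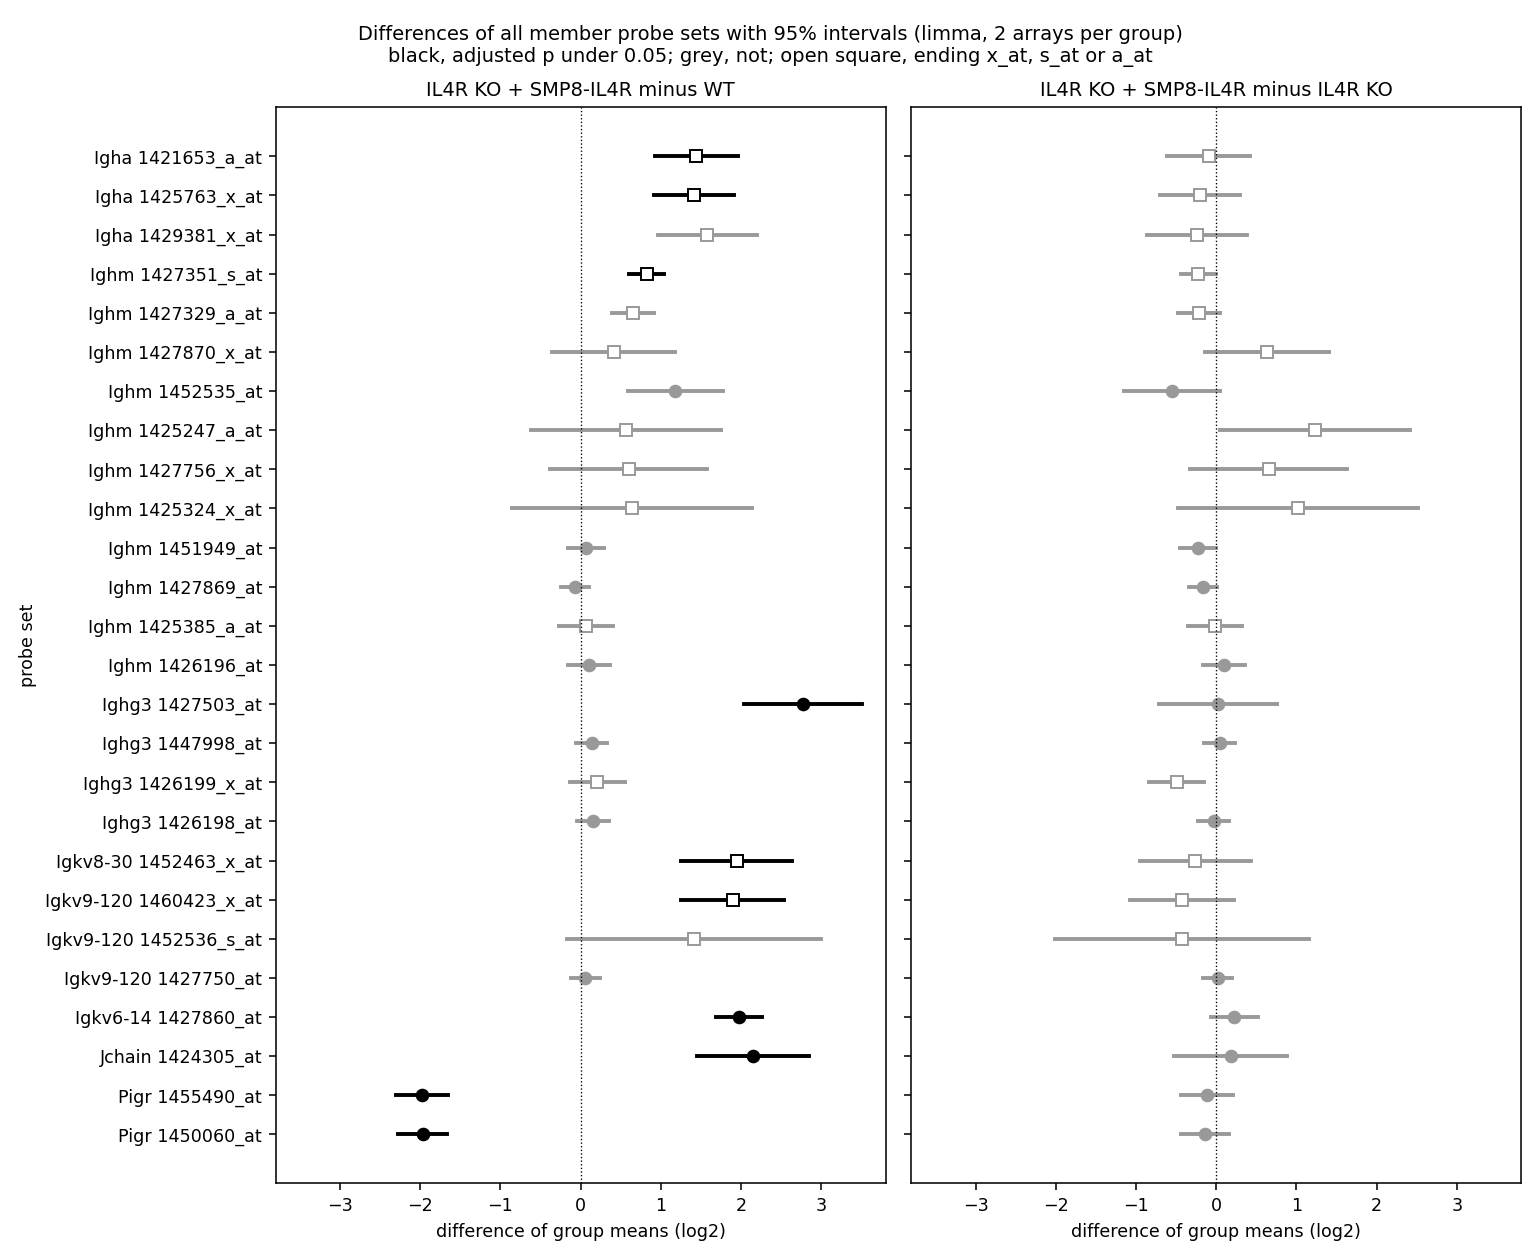
Difference of group means on the log2 scale (horizontal axis) with 95% intervals for all 26 probe sets (vertical axis), transgenic minus WT on the left and transgenic minus IL4R KO on the right, from limma with 2 arrays per group. Black marks adjusted p under 0.05, and open squares mark endings x_at, s_at or a_at: 10 are black on the left, 8 of them above 0 and both Pigr probe sets below 0, and none on the right.

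Between transgenic and IL4R KO lungs, the question is whether receptor on smooth muscle alone changes antibody genes. None of the 26 passed (limma), and 4 had an unadjusted p under 0.05, 1 higher and 3 lower. Of these 4, 3 were among the 11 dim probe sets. The share of all probe sets under that unadjusted threshold was not taken, here or for the gene lists below. Nothing is therefore read from such counts. Only 7 of the 45037 probe sets, or 0.0155%, passed in this comparison at all. The groups did not overlap in 8 of the 26 (2 higher, 6 lower), against 42.1% of all probe sets. The median log2 difference of the 26 was -0.105, and that of all probe sets -0.008. The intervals differed in width: for Pigr 1455490_at the log2 difference was -0.12 (95% interval -0.44 to 0.21), for Igkv6-14 1427860_at 0.23 (-0.06 to 0.52), for Igha 1421653_a_at -0.09 (-0.61 to 0.42), for Jchain 1424305_at 0.18 (-0.52 to 0.88) and for Ighg3 1427503_at 0.02 (-0.71 to 0.76). A 2-fold difference lies outside these 5 intervals, but not outside those of all members. Of the 15 probe sets above the middle of the scale, 11 had intervals that exclude 2-fold and 4 did not: Ighm 1427870_x_at (-0.13 to 1.40), Ighm 1452535_at (-1.15 to 0.04), Igkv9-120 1460423_x_at (-1.07 to 0.22) and Igkv9-120 1452536_s_at (-2.01 to 1.16). Over all 26, the intervals of 7 reached 2-fold.

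Between WT and IL4R KO lungs, 20 of the 26 differences lay below 0 and 6 above. The groups did not overlap in 21 probe sets, 16 lower and 5 higher in WT, against 45.8% of all probe sets, 22.1% lower and 23.7% higher. Because the members were chosen on this contrast, nothing is read from these counts. Limma called 1.58% of all probe sets in this comparison, 0.999% higher and 0.577% lower in WT.

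The IL4R KO pools were unequal in antibody transcripts. Of the 13 chain and J chain probe sets above the middle of the scale, 10 were highest in IL4R KO pool 1, 1 in IL4R KO pool 2 and 2 in transgenic pool 2, and the lowest array was a WT pool in 12 of 13. IL4R KO pool 1 is also the pool with hepatocyte transcripts and the lowest Xist. WT pool 2, which has hepatocyte transcripts too, had low chain values. Leaving out both of those arrays leaves 1 WT and 1 IL4R KO array, assumed to vary like the transgenic pair. No named member then changed direction between transgenic and WT. What part the hepatocyte transcripts have in the chain values was not tested.

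Some chain genes outside the members had wide gaps between pools of a group. The files name 12 other single chain genes, variable segments of the heavy, kappa and lambda chains, with 15 probe sets. The kappa locus symbols Igk (4 probe sets) and Igk-V21 (1) are not counted among them. Igkv6-20 1451962_at read 10.14 in IL4R KO pool 1 and 6.32 in pool 2, a 14.1-fold gap between pools of the same group, against at most 5.07 in WT, and 6.48 and 6.42 in the transgenic pools. Igkv15-103 1427837_at read 11.59 in IL4R KO pool 1 and 10.24 in transgenic pool 2, against 8.02 and 7.82 in their partner pools and 6.67 and 6.60 in WT. Igkv4-72 1426201_at read 8.88 in transgenic pool 2 and 7.05 in transgenic pool 1, a 3.53-fold gap. In all 3 the WT pools were the lowest, while single kappa segments reached high values in single pools. Ighv14-2 1455530_at differed the other way between the IL4R KO pools, at 8.18 in pool 1 and 9.38 in pool 2. Apart from Igkv6-20, Igkv15-103 and Ighv14-2, gaps between the IL4R KO pools were at most 1.49-fold.

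Taking the probe set with the highest mean for each of these 12 genes, all 12 lay below IL4R KO in WT lungs and 11 of 12 lay above WT in transgenic lungs, with median log2 differences of -0.88 and 0.77. Only 6 of the 12 were above 7.10 in at least 2 arrays. Among the dimmer ones, differences between WT and IL4R KO ran from -3.20 (Igkv6-20) to -0.16 (Igkv1-135), -0.15 (Igkv1-117) and -0.08 (Igkv19-93). The share of all genes with the same sign was not taken. Of the 12, 2 passed as lower in WT than in IL4R KO, and 1, the lambda segment Iglv1, as higher in transgenic than in WT. With Igk and Igk-V21 added, 14 of 14 lay below IL4R KO in WT and 13 of 14 above WT in transgenic lungs, with the medians at the same values. Over the probe sets so taken for all 18193 genes, 2.29% and 1.5% passed. Iglv1 1430523_s_at read 7.80 and 8.09 in the WT pools, 9.37 and 9.15 in the IL4R KO pools and 8.94 and 9.46 in the transgenic pools. Iglv1 lay 1.32 ± 0.19 below IL4R KO in WT and 1.26 ± 0.19 above WT in the transgenic lungs (log2, SE; limma adjusted p = 0.0264 and 0.0379). Igkv4-68 1427857_x_at lay 1.01 below IL4R KO in WT (limma adjusted p = 0.0434). Both lost these calls without WT pool 1 or WT pool 2 (adjusted p 0.125 to 0.302). Iglv1 also lost them without IL4R KO pool 1 (adjusted p = 0.0619) and without transgenic pool 2 (0.168) respectively, and Igkv4-68 without IL4R KO pool 1 or either transgenic pool (0.0763 and 0.0719). In transgenic against IL4R KO lungs 0 of 12 passed (limma; 1 with unadjusted p under 0.05).

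The kappa locus symbol Igk differed between its probe sets in spread. Igk 1425738_at read 7.87 and 8.08 in the WT pools, 11.60 and 9.42 in the IL4R KO pools and 11.06 and 10.43 in the transgenic pools. WT lay below every other array, but the IL4R KO pools were far apart, and the log2 difference of 2.77 ± 0.62 (SE) between transgenic and WT, which is 6.81-fold, did not pass (limma adjusted p = 0.124). Igk 1452557_a_at read 7.28 and 7.37 in the WT pools, 8.20 and 8.13 in the IL4R KO pools and 7.94 and 8.23 in the transgenic pools. It was 0.84 lower in WT than in IL4R KO and 0.76 ± 0.11 higher in transgenic than in WT (limma adjusted p = 0.0208 and 0.0357). Both calls ended without WT pool 1 or WT pool 2 (adjusted p 0.150 to 0.267) and without both arrays with hepatocyte transcripts (0.0943 and 0.0923), and the second also without transgenic pool 1 or 2 (0.0593 and 0.181). These probe sets were chosen after their values were seen.

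**Figure D3:**
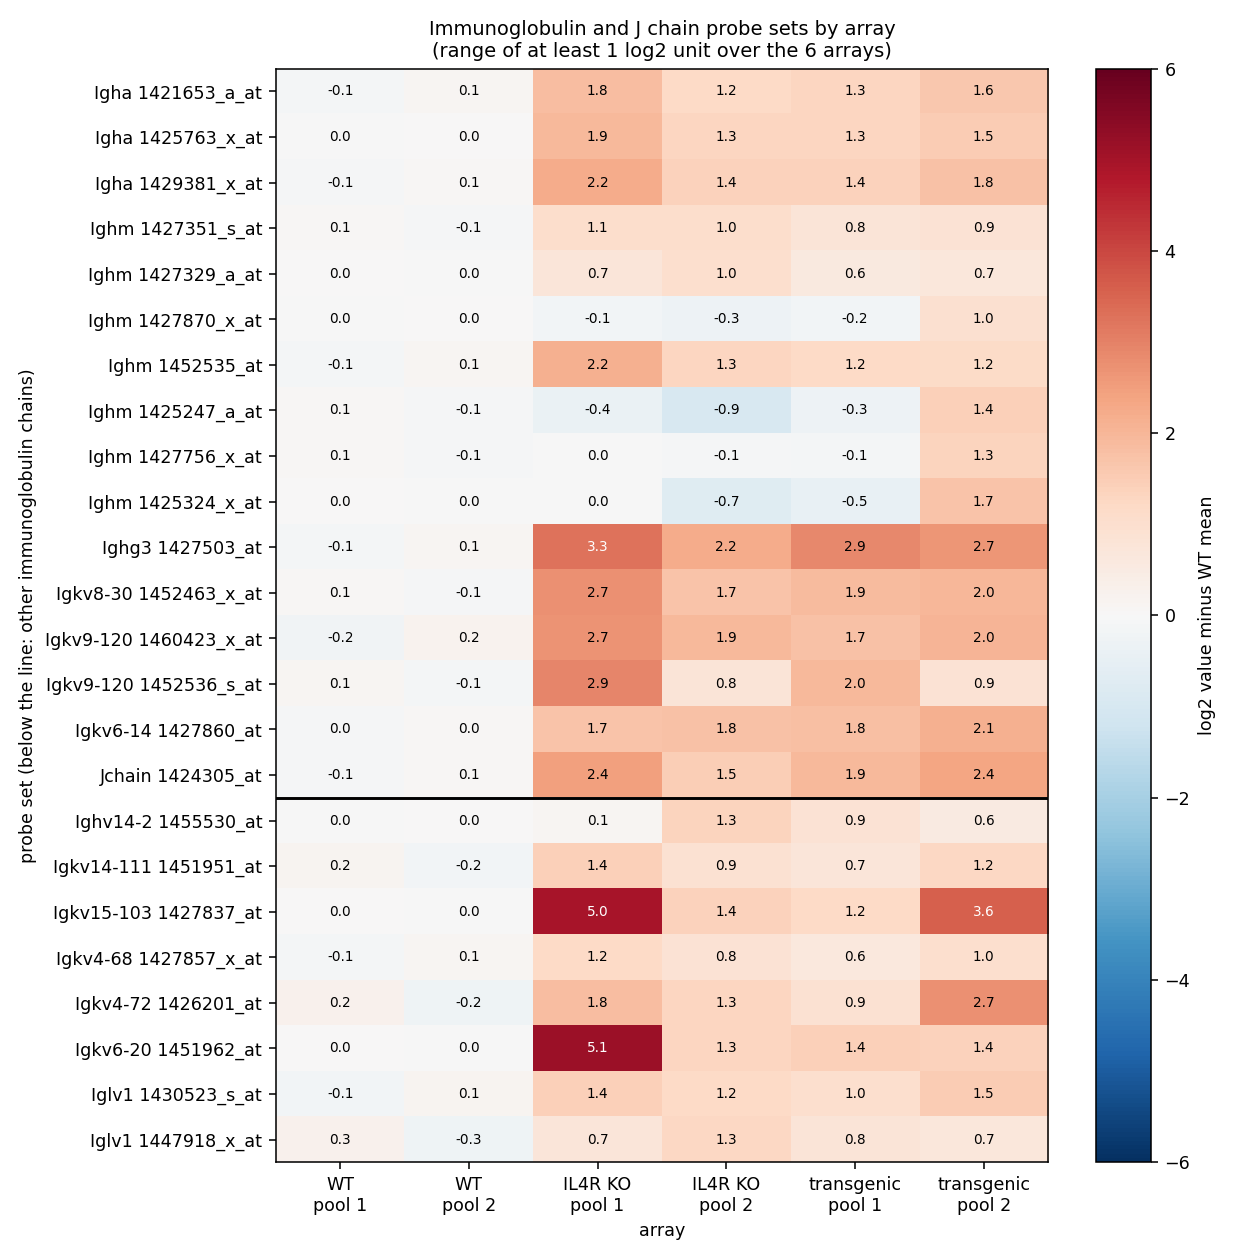
Log2 value minus the WT mean (colour and printed number) on each of the 6 arrays (columns) for 24 chain and J chain probe sets that ranged over at least 1 log2 unit (rows): 16 of the members above the line and 8 of the other variable segments below it, without Igk. Most rows are red in all 4 arrays from IL4R KO and transgenic lungs; Igkv15-103 and Igkv6-20 are darkest in IL4R KO pool 1, and 4 Ighm rows are red only in transgenic pool 2.

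Genes of antibody-making cells passed in both directions. Of 16 measured plasma cell genes, 3 passed between WT and IL4R KO (1 higher and 2 lower in WT) and 2 between transgenic and WT (1 higher and 1 lower in transgenic), with median log2 differences of -0.10 and -0.01. Mzb1, a helper of antibody assembly in the endoplasmic reticulum, read 8.51 and 8.46 in the WT pools, 10.21 and 9.56 in the IL4R KO pools and 9.64 and 9.71 in the transgenic pools. It was 1.40 ± 0.19 lower in WT than in IL4R KO (log2, SE; limma adjusted p = 0.0244) and had a log2 difference of 1.20 between transgenic and WT (0.0506). Pou2af1, a B lineage transcriptional coactivator, read 8.21 and 8.30 in the WT pools, 9.26 and 9.49 in the IL4R KO pools and 9.28 and 9.09 in the transgenic pools. It was 1.12 lower in WT than in IL4R KO (limma adjusted p = 0.00613) and 0.93 ± 0.11 higher in transgenic than in WT (0.0161). Both were lowest in WT, as Jchain was.

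Not all other plasma cell genes followed this order. Irf4, a transcription factor of plasma cells that activated T cells and myeloid cells also make, read 8.59 and 8.72 in the WT pools, 7.65 and 7.78 in the IL4R KO pools and 7.62 and 7.77 in the transgenic pools. It was highest in WT, as Pigr was: 0.94 higher in WT than in IL4R KO (limma adjusted p = 0.00708), and 0.96 ± 0.09 lower in transgenic than in WT (0.00801). Xbp1, which drives the secretory programme and is also high in secretory epithelium, stayed between 12.94 and 13.04. Sdc1, a surface marker of plasma cells that epithelium also carries, ranged from 12.22 to 12.54 with both WT pools lowest. Eaf2, dim at 5.69 to 6.86, also had both WT pools lowest. Neither Sdc1 nor Eaf2 passed in any comparison. Of the 16 genes, 10 lay below IL4R KO in WT and 6 above. In transgenic lungs 8 lay above WT and 8 below. Tnfrsf17, the survival receptor BCMA, was dim at 5.84 to 6.36. Leaving out either WT pool ended the calls of Mzb1, Pou2af1 and Irf4. Leaving out either transgenic pool ended both calls between transgenic and WT and that of Mzb1, with adjusted p of 0.0596 to 0.195 over these fits.

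No B cell gene passed, and most were highest in another array than the chains. Of 19 measured B cell genes, 0 passed in any of the 3 comparisons (limma; 8, 1 and 3 with unadjusted p under 0.05 for WT against IL4R KO, transgenic against IL4R KO and transgenic against WT). Median log2 differences were -0.53, -0.14 and 0.39. IL4R KO pool 2 was the highest array for 15 of the 19, whereas IL4R KO pool 1 was highest for 10 of the 13 chain and J chain probe sets. Cd79a, part of the B cell antigen receptor, read 9.24 and 9.27 in the WT pools, 9.73 and 10.58 in the IL4R KO pools and 9.88 and 9.74 in the transgenic pools. Ms4a1, which encodes CD20 and is lost in plasma cells, read 8.33 and 8.53 in the WT pools, 8.33 and 9.61 in the IL4R KO pools and 9.03 and 8.89 in the transgenic pools. In IL4R KO pool 1, where Jchain was at its highest, Ms4a1 was thus at the WT level while Cd79a lay above both WT pools. Cd72 and Ebf1 had the lowest unadjusted p of the list. Their log2 differences between transgenic and WT were 0.52 and 0.28 (limma adjusted p = 0.139 and 0.165). The mean of the 19 was 8.04 and 8.11 in the WT pools, 8.10 and 8.86 in the IL4R KO pools and 8.39 and 8.30 in the transgenic pools. How many of the 19 passed depended on which IL4R KO pools were in the fit. A fit without 1 of them leaves a single IL4R KO array. Calls over all probe sets also moved when 1 array was left out. What part these cells have in the chain values was not tested. Of 6 T cell genes 5 were also highest in IL4R KO pool 2, and none passed (limma; 3, 0 and 1 with unadjusted p under 0.05). Glycam1, made by lymph node vessels, varied from 5.15 to 9.93 with no order by group.

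**Figure D4:**
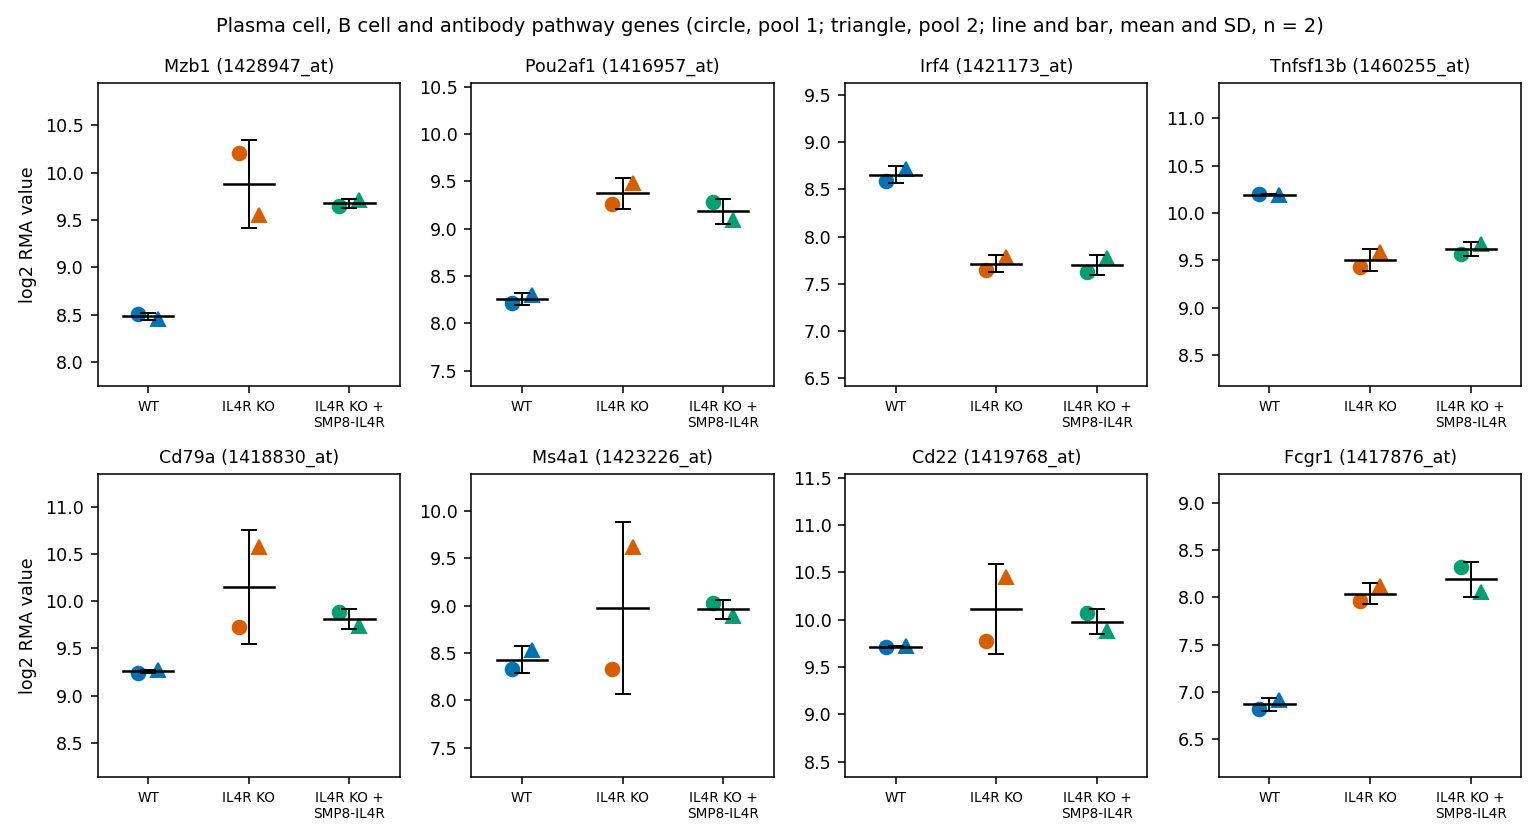
Deposited log2 values (vertical axis) of 8 plasma cell, B cell and antibody pathway genes in the 3 groups, with circles for pool 1, triangles for pool 2 and lines with bars for mean and SD of 2 pools. Mzb1, Pou2af1 and Fcgr1 are lowest in WT, Irf4 and Tnfsf13b highest in WT, and Cd79a, Ms4a1 and Cd22 are highest in IL4R KO pool 2.

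Signals for IgA switching, survival and homing were read from 13 measured genes of a list of 15. Only Tnfsf13b, which encodes the B cell survival factor BAFF, passed. It read 10.20 and 10.19 in the WT pools, 9.42 and 9.59 in the IL4R KO pools and 9.57 and 9.67 in the transgenic pools. It was 0.69 higher in WT than in IL4R KO (limma adjusted p = 0.0178) and 0.57 lower in transgenic than in WT (0.0398), so it was lowest where the chains were high. Both calls ended when any single WT or transgenic pool was left out (adjusted p 0.0575 to 0.299) and without both arrays with hepatocyte transcripts (0.0847 and 0.0805), and the second also with the replicate block (0.0551). Cxcl13, the chemokine that draws B cells into follicles, read 8.34 and 8.32 in the WT pools, 10.49 and 9.44 in the IL4R KO pools and 9.93 and 9.45 in the transgenic pools, with no overlap between WT and the rest, but did not pass (limma adjusted p = 0.075 against IL4R KO and 0.137 against transgenic). The mucosal chemokine Ccl28 and its receptor Ccr10, which guide IgA plasma cells, stayed at 6.58 to 6.82 and 6.79 to 7.00. Il6 read 6.01 and 6.09 in the WT pools, 4.69 and 4.57 in the IL4R KO pools and 5.70 and 4.72 in the transgenic pools and did not pass (limma adjusted p = 0.0748 for WT against IL4R KO). Cxcr4 read 10.39 and 10.49 in the WT pools, 10.71 and 11.21 in the IL4R KO pools and 11.35 and 11.24 in the transgenic pools. Both WT pools were the lowest, as for the chains. Its log2 difference of 0.85 between transgenic and WT did not pass (limma adjusted p = 0.0749). In transgenic against IL4R KO, 0 of 13 passed (limma; 1 with unadjusted p under 0.05).

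Receptors that bind antibodies were read from 10 genes. Fcgr1, the high-affinity activating IgG receptor, read 6.82 and 6.92 in the WT pools, 7.96 and 8.12 in the IL4R KO pools and 8.32 and 8.06 in the transgenic pools. It was lowest in WT, as the chains were, 1.17 lower in WT than in IL4R KO and 1.32 higher in transgenic than in WT (log2; limma adjusted p = 0.00576 and 0.00423). Fcgr2b, the inhibitory IgG receptor, read 10.88 and 11.05 in the WT pools, 10.02 and 9.44 in the IL4R KO pools and 10.06 and 9.68 in the transgenic pools. It was 1.23 higher in WT than in IL4R KO (limma adjusted p = 0.0457), and its log2 difference of -1.09 between transgenic and WT did not pass (0.0805). Fcgrt, the neonatal Fc receptor that recycles IgG, stayed between 10.38 and 10.72, and Fcamr, a receptor for IgA and IgM, had values of 6.66 to 6.78 in WT and 6.14 to 6.33 elsewhere and did not pass (limma adjusted p = 0.0976 against IL4R KO). Calls of both Fcgr1 and Fcgr2b ended without either WT pool (adjusted p 0.0518 to 0.282), and that of Fcgr2b also without either transgenic pool (0.0906).

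Genes of some signals that can induce Pigr, namely interferon gamma, IL-17, TNF and Toll-like receptors, mostly did not pass. The IL-4 receptor, which differs between the groups by design, was not in this list. Of 10 measured, 1 passed between WT and IL4R KO: Tlr4, the endotoxin receptor, which read 9.55 and 9.51 in the WT pools, 8.78 and 8.71 in the IL4R KO pools and 9.07 and 8.87 in the transgenic pools (log2 difference 0.79, limma adjusted p = 0.0138; lost without either WT pool, 0.159 and 0.125). None passed between transgenic and WT (limma; 5 with unadjusted p under 0.05), the nearest being Tlr4 (0.0511). Irf1, the interferon-induced factor, stayed between 11.32 and 11.59. Il17ra had a log2 difference of -0.39 between WT and IL4R KO and Ifngr2 of 0.49, and neither passed (limma adjusted p = 0.132 and 0.087).

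No epithelial marker passed in the direction of Pigr. The mean of 9 lung epithelial genes lay between 13.14 and 13.24 on the 6 arrays, and median log2 differences were 0.05 between WT and IL4R KO and -0.09 between transgenic and WT. Scgb3a2, a secretoglobin of club cells, was the only one to pass, 0.54 lower in WT than in IL4R KO (limma adjusted p = 0.038), the opposite direction to Pigr, and it lost the call when any of the 6 arrays was left out (0.0568 to 0.264). Several of these genes lie near the top of the scale, where differences are compressed.

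The genes whose values over the 6 arrays were most like Jchain and Pigr were sought among 433 genes that ranged over at least 1 log2 unit and were above 7.10 in at least 2 arrays. Immunoglobulin chain genes were left out of these candidates, apart from the locus symbol Igk, which the naming pattern missed. The ranking therefore does not show how closely the chain genes followed Jchain. For Jchain they were Mzb1 (Pearson r = 0.973), the kappa locus symbol Igk (0.949), 1810010H24Rik (0.931), Olfm2 (0.930), Cxcl13 (0.923) and Btla (0.923). For Pigr they were Has3 (0.998), Cd83 (0.997), Fcrls (0.996), Itln1 (0.996), Batf3 (0.996) and Hebp2 (0.995). With 6 arrays in 3 groups, a gene that separates WT evenly from the rest has a high r with Pigr. In all, 129 of the 433 (29.8%) had r of at least 0.9 with Pigr and 11 (2.54%) with Jchain, while 21 had r of at most -0.9 with Pigr and 112 with Jchain.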

How the data were processed

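Whole lung RNA from 3 groups of 2 pools was hybridized to 6 arrays. The table of log2 values is as the authors deposited it, from RMA per the submitters' processing notes (background correction, quantile normalization, probe summary; version not given in the sources used here). RMA compresses dim signals. Of 45101 probe sets, 64 array controls were left out. Symbols came from the platform annotation: 34945 probe sets had 1 gene, 932 several and 9160 none, and all 26 member probe sets matched RefSeq by Entrez ID. Arrays count no molecules, so the number of arrays, 2 per group, limits the precision.

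Limma 3.58.1 in R 4.3.3 was fitted to all 45037 probe sets with 1 mean per group, no filter, and Benjamini-Hochberg adjustment over all (threshold 0.05). It had 3 residual and 3.72 prior degrees of freedom. p-values measure the spread between pools. On simulated data for transgenic against WT, over all 45037 probe sets, the fit recovered 72.2% of changes of 1 log2 unit and 94.9% of 2, with 3.58% false calls. Those data had independent normal noise, with the spreads shuffled among probe sets, and no pools that stand apart. The recovery need not hold for chain probe sets with uneven pools. The members and gene lists were chosen with earlier results of these data known. Each other gene was read by its brightest probe set. Named members were the brightest per gene and, where that had another ending, the brightest with the plain one, with further ones chosen after their values were seen. Listed genes were named where they passed, with up to 3 more of lowest p. Added after their values were seen were Xbp1, Sdc1, Eaf2, Tnfrsf17, Ccl28, Ccr10, Fcgrt, Fcamr, Igk, Irf1, Il17ra, Cd22, Ms4a1, Scgb1a1 and Sftpc. The lists also held 5 thymus genes, none of which passed (limma; 2, 0 and 2 with unadjusted p under 0.05). Promoters were matched for 2 of the 8 genes. Alternatives were a filter on dim probe sets, 1 probe set per gene, a robust intensity trend, only the 4 arrays compared, a replicate block, median centring, leaving out each array, leaving out both arrays with liver transcripts, and a Y-linked covariate. Same-numbered pools did not deviate together.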

Additional observations from a re-analysis of the deposited data

How the results depend on the processing

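Precision rests on 2 pools of 4 mice per group, and dim or cross-binding probe sets limit which chain a value stands for. Direction between transgenic and WT held for all named member probe sets under every alternative run; of those calls, 37 were lost and 5 gained across the alternatives. Members passing there numbered 5 of 26 with a robust intensity trend, against 10, and 3 to 13 with 1 array left out; in transgenic against IL4R KO they stayed at 0. The replicate block gave 7 of 26 (adjusted p 0.0630 and 0.0566 for Igha 1421653_a_at and 1425763_x_at and 0.0548 for Igkv9-120 1460423_x_at) and changed no other member call; outside the members it ended the calls of Tnfsf13b between transgenic and WT (0.0551) and of Igkv4-68 and Scgb3a2 between WT and IL4R KO (0.0611 and 0.0660), and no other named one; the pool numbers do not pair the samples (r of pool differences -0.35, -0.07 and 0.05).

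Over all probe sets, transgenic against WT gave 470 calls, 732 with the robust trend, 1042 with the Y-linked covariate, 1064 with only the 4 arrays and 102 to 1064 with 1 array left out. Transgenic against IL4R KO gave 7, and 12 with 1 probe set per gene, 31 with the robust trend, 16 with the replicate block, 13 without both arrays with liver transcripts, 74 with the Y-linked covariate, 0 with only the 4 arrays (0 to 96 with 1 array left out). WT against IL4R KO gave 710, and 1075 with the robust trend, 1373 with the Y-linked covariate, 322 with only the 4 arrays (127 to 1401 with 1 array left out). The cause of these moves was not tested.

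Between transgenic and IL4R KO, differences near 0 changed sign, none passing. Without both arrays with liver transcripts they became 0.22 (Igha 1421653_a_at), 0.13 (Igha 1425763_x_at) and 0.25 (Igkv8-30). With the Y-linked covariate they became -0.40 (Ighg3), -0.0074 (Igkv9-120 1427750_at), -0.16 (Jchain) and 0.027 (Pigr 1455490_at). With 1 array left out they ran from -0.41 to 0.22 and -0.54 to 0.13 (both Igha), -0.50 to 0.55 (Ighg3), -0.77 to 0.25 (Igkv8-30), -0.013 to 0.052 (Igkv9-120 1427750_at), -0.29 to 0.65 (Jchain), -0.32 to 0.038 (Pigr 1450060_at) and -0.30 to 0.065 (Pigr 1455490_at). For WT against IL4R KO, Igkv9-120 1427750_at ran from -0.077 to 0.0044. WT against IL4R KO without both liver arrays gave -0.94 (Ighm 1427351_s_at), -1.83 (Igkv6-14) and -1.62 (Igkv8-30). The number of B cell genes passing between WT and IL4R KO also moved in that setting, which leaves 1 array in each of these groups. Without both liver arrays the calls of Iglv1, Igkv4-68, Igk, Irf4, Tlr4, Scgb3a2 and Tnfsf13b between WT and IL4R KO, and of Iglv1, Igk and Tnfsf13b between transgenic and WT, were lost (adjusted p 0.0565 to 0.125). With only the 4 arrays compared, those of Fcgr2b, Igkv4-68, Mzb1, Scgb3a2 and Tnfsf13b between WT and IL4R KO were lost (0.0575 to 0.0938), with the robust trend that of Fcgr2b (0.0550), and with the Y-linked covariate that of Scgb3a2 (0.0511).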
